A study of Mus musculus with 6 samples.

Results

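Accessible chromatin was described around 10 mouse genes that encode mesenchymal markers and extracellular matrix proteins, namely Cdh2, Vim, Fn1, Tnc, Tgfbi, Sparc, Postn, Thbs1, Lox and Ltbp2. A region belonged to the set when it lay within 100 kb of the annotated 5′ end of one of these genes, and 62 of the 39435 regions of the series did. ATAC-seq, which marks accessible DNA by insertion of adapters with the transposase Tn5, was done in NMuMG cells, an epithelial line from normal mouse mammary gland. After 6 h without serum and insulin the cells were given TGFβ1 (5 ng/ml) for either 2 h or 12 h, or vehicle (the BSA-containing diluent of the factor) for 2 h, with 2 biological replicates in each of the 3 conditions. Vehicle cells were collected at 2 h, so for the 12 h cells the effect of TGFβ and that of the longer time without serum cannot be told apart. The authors combined both replicates of a condition into 1 list of reproducible peaks, so that the files give 1 list per condition, no spread between replicates and no read counts. Presence, width and position were therefore described without a test between conditions, and shares carry 95% Wilson intervals, which cover counting error alone and treat neighbouring regions as independent.

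TGFβ is a secreted factor that drives epithelial cells towards a mesenchymal state, with loss of epithelial junctions, a change from E-cadherin to N-cadherin, and deposition of matrix. It signals through receptor kinases to SMAD proteins, which bind DNA with partners such as AP-1, the dimers of JUN and FOS proteins. Fibronectin, tenascin C, thrombospondin 1 and lysyl oxidase are among the long-known matrix products of cells that respond to TGFβ, and latent TGFβ itself is stored in this matrix.

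A region absent from the vehicle list and present in both TGFβ lists is called a TGFβ region below, a word about the lists and not about a measured rise of signal. Of the 23 such regions near the 10 genes, 12 held the AP-1 motif within 250 bp of their centre. Those 9 that do not lie near Cdh2 or Lox are shown, because AP-1 was the most frequent of the searched motifs in the set. Each run is 67 bases of the plus strand of mm9 (NCBIM37), and capitals mark the motif.
Vim, 92.8 kb upstream, chr2:13402524-13402590: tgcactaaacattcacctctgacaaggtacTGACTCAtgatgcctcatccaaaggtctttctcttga
Vim, 47.4 kb upstream, chr2:13448023-13448089: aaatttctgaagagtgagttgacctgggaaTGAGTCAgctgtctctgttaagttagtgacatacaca
Fn1, 99.1 kb upstream, chr1:71799077-71799143: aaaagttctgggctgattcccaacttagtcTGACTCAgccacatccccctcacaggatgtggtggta
Tnc, in the gene body, chr4:63631156-63631222: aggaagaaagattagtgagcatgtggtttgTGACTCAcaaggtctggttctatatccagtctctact
Tgfbi, 7.9 kb upstream, chr13:56702796-56702862: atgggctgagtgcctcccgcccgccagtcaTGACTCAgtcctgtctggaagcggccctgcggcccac
Sparc, 45.2 kb upstream, chr11:55278853-55278919: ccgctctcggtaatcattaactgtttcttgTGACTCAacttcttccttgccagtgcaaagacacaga
Sparc, 85.3 kb upstream, chr11:55319178-55319244: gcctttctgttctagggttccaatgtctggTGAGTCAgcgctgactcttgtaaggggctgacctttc
Thbs1, 66.7 kb upstream, chr2:117870574-117870640: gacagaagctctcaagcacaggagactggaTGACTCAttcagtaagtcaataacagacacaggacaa
Ltbp2, 8.3 kb upstream, chr12:86226136-86226202: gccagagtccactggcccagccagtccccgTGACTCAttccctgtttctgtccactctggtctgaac

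The 5′ ends of the same genes fell into 3 kinds, in a region of every list, in a region of the 12 h list alone, or in no region. The 250 bases that precede the 5′ end are shown for 2 genes of the first kind (Fn1 and Thbs1) and 1 gene each of the others (Sparc and Tnc), read on the strand of the gene in mm9, with each CG dinucleotide in capitals.
Fn1, chr1:71699775-71700024, minus strand: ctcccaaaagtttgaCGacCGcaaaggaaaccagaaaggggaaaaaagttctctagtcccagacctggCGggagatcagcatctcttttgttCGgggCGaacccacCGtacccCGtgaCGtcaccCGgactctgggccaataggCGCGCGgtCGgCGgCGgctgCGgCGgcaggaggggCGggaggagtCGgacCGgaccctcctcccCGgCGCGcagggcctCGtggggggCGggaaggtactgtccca
Thbs1, chr2:117937362-117937611, plus strand: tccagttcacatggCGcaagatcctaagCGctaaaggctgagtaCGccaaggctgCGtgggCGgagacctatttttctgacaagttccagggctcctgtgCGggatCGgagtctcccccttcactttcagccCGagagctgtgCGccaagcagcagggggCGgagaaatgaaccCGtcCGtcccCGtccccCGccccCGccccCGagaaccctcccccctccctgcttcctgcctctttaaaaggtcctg
Sparc, chr11:55233583-55233832, minus strand: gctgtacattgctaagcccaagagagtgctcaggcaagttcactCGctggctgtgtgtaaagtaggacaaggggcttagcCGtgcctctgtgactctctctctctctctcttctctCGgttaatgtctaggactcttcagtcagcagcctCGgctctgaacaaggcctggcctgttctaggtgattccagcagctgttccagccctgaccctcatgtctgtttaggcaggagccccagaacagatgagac
Tnc, chr4:63681761-63682010, minus strand: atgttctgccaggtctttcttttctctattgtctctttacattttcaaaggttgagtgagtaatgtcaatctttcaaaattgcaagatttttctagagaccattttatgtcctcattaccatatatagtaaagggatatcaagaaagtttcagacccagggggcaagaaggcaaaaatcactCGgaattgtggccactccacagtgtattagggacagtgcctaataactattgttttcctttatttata
These stretches held 25 CG dinucleotides at Fn1 and 16 at Thbs1, against 4 at Sparc and 1 at Tnc. The 4 genes stand towards the ends of the range, and others overlapped, since Vim, whose 5′ end was in every list, had 10 and Tgfbi and Ltbp2, in no list, had 11 and 13.

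To ask how the accessible regions near these genes were spread over the conditions, each of the 62 regions was looked up in the 3 lists. The vehicle list held 19 of them, the 2 h list 46 and the 12 h list 56. In all 3 lists were 17 regions (27.4%, 17.9 to 39.6), against 38.4% of all regions of the series. TGFβ regions numbered 23 of 62 (37.1%, 26.2 to 49.5), against 28.5% of all regions. They were the largest group in this window, but within 50 kb they were 9 of 33 (27.3%) and the regions at 12 h alone 12. A further 15 regions (24.2%, 15.2 to 36.2) appeared at 12 h alone, where the share over all regions was 16.3%, and 5 (8.06%, 3.49 to 17.5) at 2 h alone, against 12.9%. The interval of each of these 4 shares included the share over the series. Among the regions within 100 kb of any protein-coding gene, a closer match to the choice made here, 42.4% were in all 3 lists and 14.4% at 12 h alone, both outside the intervals near the 10 genes, and 26.8% were TGFβ regions and 12.4% at 2 h alone, both inside. Loss was rare. No region was found in vehicle alone, and 2 of 62 (3.23%) were in vehicle but missing from a TGFβ list, close to the 3.80% of all regions.

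**Figure D1:**
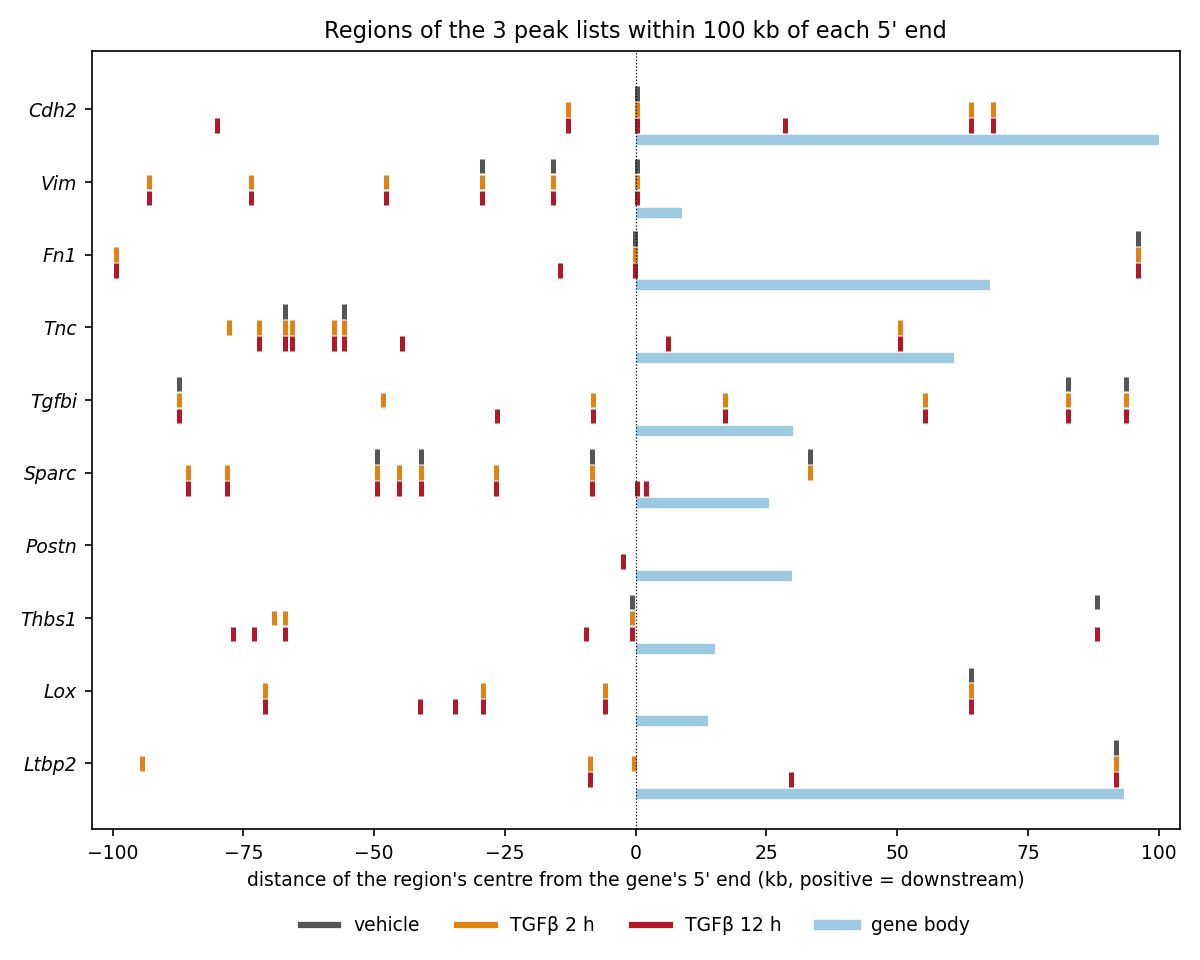
Position of the 62 regions along the 10 loci, with the distance of each region's centre from the 5′ end of the gene on the horizontal axis (kb, downstream positive) and 1 row of ticks per list for each gene (vehicle, TGFβ 2 h, TGFβ 12 h). Rows for vehicle hold 19 ticks in all, those for 2 h 46 and those for 12 h 56. Most ticks that lack a vehicle tick above them lie upstream of the gene, as do 41 of all 62 regions.

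The patterns differed between start sites and other DNA, as they did in the series. Of the 62 regions, 16 lay within 1000 bp of an annotated transcript start, of any gene, and 13 of these 16 were in all 3 lists (81.2%, 57.0 to 93.4), against 76.7% of all such regions. None of the 16 was a TGFβ region, where the share over all start-site regions was 13.5%, inside the interval of 0 to 19.4 for the 16. Of the 46 regions away from start sites only 4 were in all 3 lists (8.70%, 3.43 to 20.3), against 22.8% of all such regions, and 23 were TGFβ regions (50%, 36.1 to 63.9), against 34.7%. Both intervals left out the share over the series, but narrowly (36.1 against 34.7%, and 20.3 against 22.8%). Of the 23, the region near Thbs1 overlapped a vehicle interval of 147 bp that the width minimum had removed. With no minimum width it was in all 3 lists. The intervals away from start sites were not recomputed with that change, so the contrast may rest on this region. This comparison was added after the data were seen, and windows around 1 gene share neighbouring chromatin, so the regions are not independent draws. In total 40 of the 46 regions away from start sites were absent from the vehicle list (87.0%, 74.3 to 93.9), against 72.5% of all regions away from start sites.

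**Figure D2:**
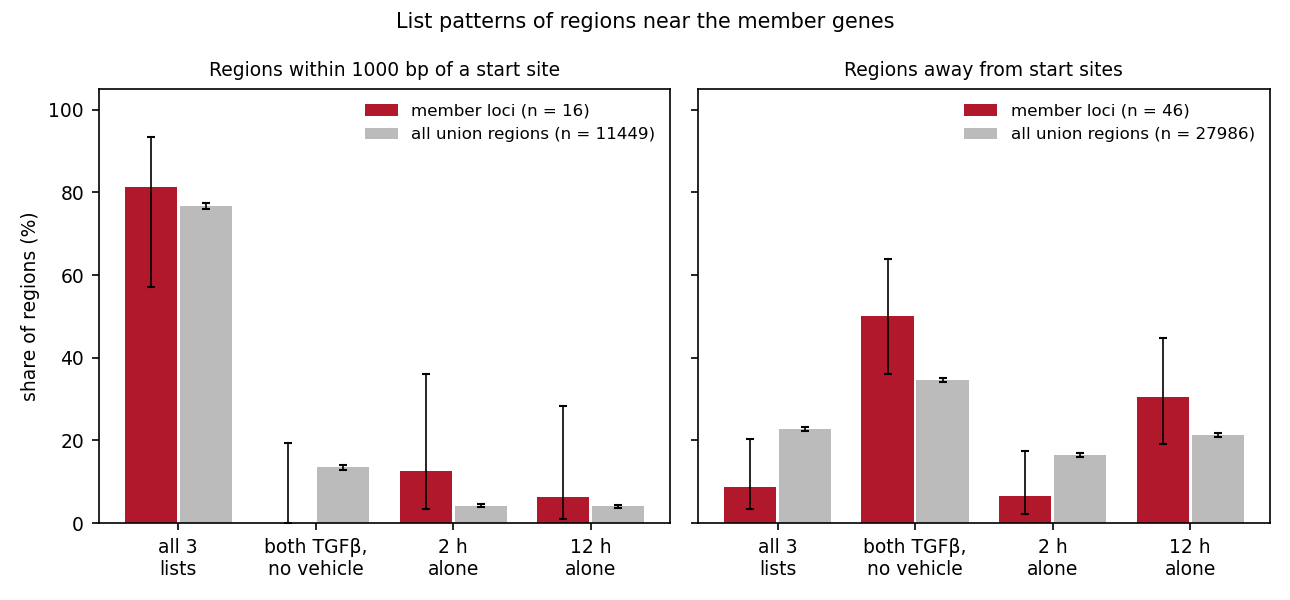
Share of regions (%) with each list pattern, for regions within 1000 bp of a transcript start (left) and away from it (right), near the 10 genes (red) and over the whole series (grey), with 95% Wilson intervals as bars. Away from start sites, TGFβ regions made up 50% near the 10 genes and 34.7% in the series, while regions of all 3 lists made up 8.70% and 22.8%.

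Most of the regions that the vehicle list lacked were upstream of the gene, as were most regions of the set. Of these 43 regions, 33 lay upstream, 8 in the gene body, 1 over a 5′ end and 1 downstream. Among all 62 regions 41 lay upstream, and the share near other genes was not computed. An upstream position does not assign a region to a gene, since for 14 of the 43 the nearest protein-coding start was that of another gene. At least 1 TGFβ region was found near 9 of the 10 genes, all but Postn, and the same held for 62.7% of the 22367 protein-coding genes. With the 5′ ends of all transcripts Postn had 1 as well, and with no minimum width Thbs1 had 0.

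The 2 genes for cell adhesion and the cytoskeleton were both accessible at the 5′ end before TGFβ. Cdh2 encodes N-cadherin, the cadherin that mesenchymal cells carry in place of E-cadherin. The region over its 5′ end (chr18:16966534-16968381) was 1634 bp wide without TGFβ, 1827 bp after 2 h and 1821 bp after 12 h. In vehicle and at 2 h it was joined from 2 intervals. The width minimum removed a further vehicle interval of 127 bp next to it (chr18:16968239-16968365, score 646). With that interval the vehicle region would span 16966534 to 16968365, against 16966555 to 16968381 at 2 h and 16966556 to 16968376 at 12 h. The widening at this 5′ end therefore rested on the minimum. No other of the 6 regions near Cdh2 was in the vehicle list. The first TGFβ region upstream, 12.8 kb away, was narrow, with 189 bp at 2 h and 197 bp at 12 h, and 2 wider ones lay within introns, at 63.8 kb (664 and 687 bp) and at 68.0 kb (598 and 580 bp) from the 5′ end. At 12 h alone the list held an intronic region of 224 bp and one of 382 bp at 79.8 kb upstream.

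Vim encodes vimentin, the intermediate filament protein of mesenchymal cells. Its 5′ end lay in a region (chr2:13494936-13496769) that widened from 1270 bp in vehicle to 1657 bp at 2 h and 1819 bp at 12 h. The region 14.8 kb upstream, over the start of the predicted gene Gm9875, went from 465 bp in vehicle to 1938 bp and 1952 bp, but there 2 intervals of each TGFβ list were joined across a gap, and the vehicle list held only 1 of them. Vim was the only gene of the 10 whose 6 regions were all in both TGFβ lists, with none seen at a single time. Its 3 TGFβ regions, all upstream, measured 498 and 554 bp at 47.4 kb, 432 and 362 bp at 73.3 kb, and 284 and 307 bp at 92.8 kb, at 2 h and 12 h in that order. Each lay nearer to the start of Trdmt1 or Cubn than to that of Vim.

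Of Fn1, Tnc and Tgfbi, only Fn1 had its 5′ end in a region. Fn1 encodes fibronectin, the matrix protein to which cells attach through integrins. The region over its 5′ end (chr1:71699168-71700523) had nearly the same width in each list, with 1269 bp before TGFβ, 1298 bp after 2 h and 1228 bp after 12 h, and it also covered transcript starts of Apol7d, which is read from the opposite strand. The other regions were few. One of 360 bp appeared 14.2 kb upstream at 12 h alone, and the sole TGFβ region lay 99.1 kb upstream, at the edge of the window, with 174 bp at 2 h and 381 bp at 12 h.

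Tnc encodes tenascin C, a glycoprotein of remodelled matrix. Its 5′ end lay in no list, and the nearest region, an intronic one of 506 bp at 6.0 kb downstream (chr4:63675234-63675739), was found at 12 h alone. Upstream of Tnc, 7 regions formed a group between 44.5 and 77.6 kb from the 5′ end, with the start of Tnc as the nearest protein-coding start of each. Only 2 of the 7 were in the vehicle list, 1 of 387 bp that measured 655 and 626 bp with TGFβ, and 1 of 287 bp that measured 316 and 335 bp. The other 5 were absent from the vehicle list, with 3 TGFβ regions among them. At 57.4 kb the 2 h list held 414 bp and the 12 h list 452 bp, and at 65.3 kb they held 540 and 523 bp. In the third (chr4:63753200-63754385) the 2 h interval of 331 bp and the 12 h interval of 627 bp did not overlap but lay 228 bp apart. The fourth TGFβ region covered coding sequence of Tnc and narrowed from 452 bp at 2 h to 259 bp at 12 h.

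Tgfbi encodes a secreted protein that binds integrins and collagen and was named for its induction by TGFβ. Its 5′ end lay in no list either. The nearest region was a TGFβ region 7.9 kb upstream (chr13:56702528-56703055) of 365 bp at 2 h and 528 bp at 12 h, and another lay in an intron, 16.8 kb downstream, with 526 and 497 bp. The third TGFβ region of the locus, past the 3′ end, was among the widest TGFβ regions of the set, with 938 bp at 2 h and 797 bp at 12 h, and lay nearer to the start of Smad5, a SMAD of the BMP branch. The start of Smad5 itself was in all 3 lists, with 1076, 1139 and 1162 bp.

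The matricellular proteins, which modulate contacts between cells and matrix, showed 3 different pictures. Sparc encodes a collagen-binding glycoprotein. Its 5′ end (chr11:55233092-55233706) lay in a region of 615 bp that was in the 12 h list alone, the only 5′ end among the 10 that differed between lists. A second region at 12 h alone, of 606 bp, lay in an intron 1.7 kb downstream (chr11:55231323-55231928). In contrast, the region 7.9 kb upstream was in every list, 818 bp wide without TGFβ, 951 bp after 2 h and 918 bp after 12 h. With 10 regions the locus had the most of the set, 4 of them TGFβ regions, all upstream at 26.5 to 85.3 kb, of which the farthest was the widest (503 and 618 bp). All 4 were nearest to the start of Atox1 or G3bp1. The widest region of the locus at 12 h lay over the start of G3bp1, with 721 bp in vehicle and 927 and 1143 bp with TGFβ. Sparc also had 1 of the 2 regions that were lost, 205 bp in vehicle and 379 bp at 2 h but absent at 12 h, at 33.2 kb downstream of its 5′ end.

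Postn encodes periostin, a matricellular protein of connective tissue and tumour stroma. A single region was found in its whole window, of 260 bp, 2.3 kb upstream and at 12 h alone (chr3:54162443-54162702). Having 1 region or none was shared with 21.2% of protein-coding genes. With the minimum width set at 300 bp it dropped out, and the locus was empty. With the 5′ ends of all transcripts the locus had 2 regions, 1 of them a TGFβ region.

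Thbs1 encodes thrombospondin 1, which can activate latent TGFβ. Its promoter region (chr2:117935929-117937903) was in every list and showed the largest widening among the 5′ ends, from 889 bp in vehicle to 1951 bp at 2 h and 1975 bp at 12 h. Part of that width came from joined intervals, of which vehicle had 2, the 2 h list 3 and the 12 h list 2. Far upstream, 4 regions lay between 66.7 and 76.9 kb from the 5′ end, none of them matched by a vehicle region of 150 bp or more, namely a TGFβ region of 423 and 599 bp, 1 of 805 bp at 2 h alone, and 2 of 414 and 347 bp at 12 h alone. The TGFβ region, which is the one with the printed AP-1 sequence, did overlap a vehicle interval of 147 bp (score 541), just under the width minimum, and with no minimum it was in all 3 lists, which left Thbs1 with no TGFβ region. No other region of the 43 overlapped a vehicle interval that the minimum had removed. Closer to the gene, 9.4 kb upstream, the 12 h list alone held a region of 245 bp. Thbs1 also had the other region that was lost, of 211 bp in vehicle and 215 bp at 12 h but absent at 2 h.

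The last 2 genes, for a cross-linking enzyme and for a member of the latent TGFβ binding protein family, had 5′ ends outside every list and TGFβ regions within 10 kb. Lox encodes lysyl oxidase, which cross-links collagen and elastin. All 5 regions upstream of it were absent from the vehicle list. The nearest was a TGFβ region 5.5 kb upstream (chr18:52694975-52695839) of 853 bp at 2 h and 848 bp at 12 h, followed at 28.8 kb by one that widened from 439 bp to 826 bp. The third, at 70.7 kb, had 245 and 291 bp, and the 2 regions at 12 h alone were narrow, with 308 and 150 bp. The only vehicle region of the locus lay over the start of Srfbp1.

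Ltbp2 encodes a protein of that family found on elastic fibres. A region of 471 bp that began 96 bp upstream of its 5′ end (chr12:86217578-86218048) was in the 2 h list alone. It lay in an untranslated exon of D030025P21Rik, a gene on the opposite strand. At 8.3 kb upstream came a TGFβ region of 817 bp at 2 h and 881 bp at 12 h (chr12:86225743-86226690), and an intronic region of 542 bp was in the 12 h list alone. The coding sequence near the 3′ end held a small region in every list, with 206, 227 and 241 bp.

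Counted over the genes, the 5′ end lay in a vehicle region for 4 of 10 (Cdh2, Vim, Fn1 and Thbs1), against 35.9% of all protein-coding genes. The same 4 were covered at 2 h, against 41.4%, and 5 at 12 h with the addition of Sparc, against 41.5%. With 10 genes these shares could not be set apart from those of all genes. The number of regions per gene ran from 1 at Postn to 10 at Sparc, with a median of 6, against a median of 5 and a range of 0 to 26 over all genes. The number of TGFβ regions per gene had a median of 3, against 1 over all genes, and was 4 at Tnc and Sparc, a number that 91.0% of genes did not reach. These counts depended on the settings. With a 300 bp minimum width Sparc had 1 and Tnc 4, and with merge gaps under 2000 bp Tnc had 2 and Sparc 4. With the TGFβ lists cut to their widest intervals both had 0.

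Where a region was matched between lists, it was usually wider with TGFβ. At 2 h, 17 of 18 matched regions were wider than in vehicle (94.4%, 74.2 to 99.0), against 82.8% of matched regions of the series. The difference ranged from -73 to 1473 bp, with a median of 159 bp against 148 bp. At 12 h, 16 of 18 were wider (88.9%, 67.2 to 96.9), against 83.6%. Here the median was 84 bp near the 10 genes and 175 bp in the series, in a range from -41 to 1487 bp. The 12 h regions that did not widen were those at the 5′ end of Fn1 and at the start of Srfbp1. With no minimum width, 17 of 19 matched regions were wider at 2 h (89.5%) and 16 of 19 at 12 h (84.2%). Widening was thus a feature of the lists in general, and the extremes near these genes were the regions with joined intervals at Gm9875 and Thbs1. Between the TGFβ times, 15 of the 23 TGFβ regions were wider at 12 h than at 2 h and 8 narrower, with a median difference of 38 bp against 24 bp in the series.

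**Figure D3:**
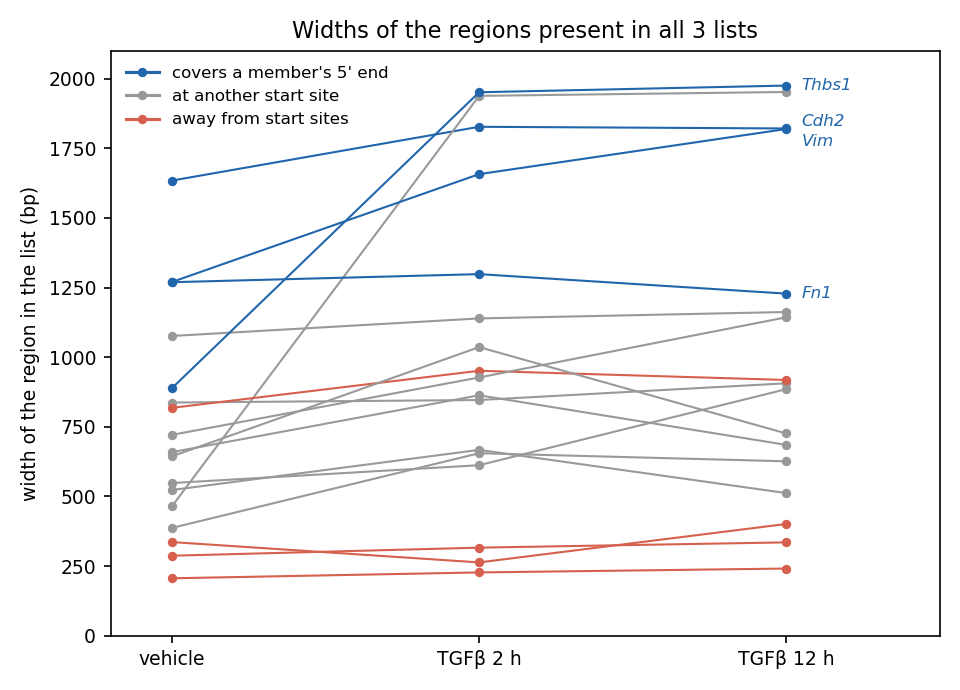
Width (bp) of the 17 regions that were in all 3 lists, with 1 line per region and the lists along the horizontal axis, coloured by position (over the 5′ end of a named gene, at another start site, or away from start sites). Thbs1 rises from 889 to 1951 bp at 2 h and Fn1 stays between 1228 and 1298 bp, and the region over Gm9875 rises more, from 465 to 1938 bp.

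Regions of all 3 lists were also the widest, with a median of 971 bp over the 3 lists joined (954 bp in the series), followed by TGFβ regions with 554 bp (584 bp), regions at 2 h alone with 390 bp (347 bp) and at 12 h alone with 360 bp (370 bp). The vehicle score, a deposited value with no stated scale and a highest value of 1000, was at that highest value in 11 of the 19 vehicle regions (57.9%), against 52.3% in the series. The promoter regions of Cdh2 and Fn1 were below it, with 882 and 819. The lowest, 571, belonged to a region 82.5 kb from Tgfbi.

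Because the 5′ ends differed so much in their CG dinucleotides, the ratio of observed to expected CG was computed over 500 bp to either side of each 5′ end, a measure chosen after the lists had been compared. It was 0.87 at Cdh2, 0.69 at Fn1, 0.57 at Thbs1 and 0.53 at Vim, the 4 genes in a vehicle region. Sparc, Tnc and Postn had the lowest values, 0.22, 0.24 and 0.21. Lox and Tgfbi, with 0.54 and 0.51, were close to Vim and in no list, and Ltbp2 was not covered at 0.67. Over all genes the classes on either side of a ratio of 0.6 were far apart, since 67.8% of the 10205 genes with a ratio of 0.6 or more were covered in vehicle and 9.13% of the 12162 genes below it. At 12 h these shares were 76.0% and 12.6%. Among the 10 genes, 2 of the 3 with a ratio of 0.6 or more were covered in each list, and 2 of the 7 below it in vehicle and 3 at 12 h.

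**Figure D4:**
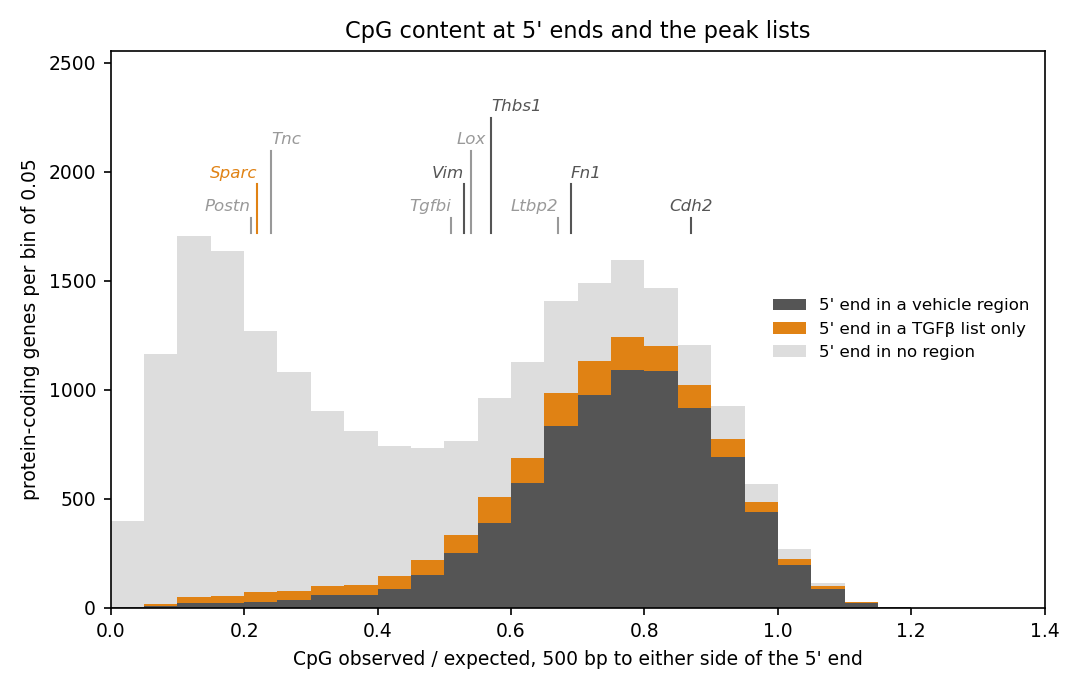
Observed over expected CG content within 500 bp of the 5′ end (horizontal axis) against the number of protein-coding genes per bin (vertical axis), stacked by whether the 5′ end lies in the vehicle list, in 1 or both TGFβ lists but not vehicle, or in no list, with the 10 genes marked above in the colour of their class. Sparc (0.22) is the only 1 of the 10 in the class of a TGFβ list without vehicle, and stands in a part of the range where most genes are in no region.

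To see which binding motifs these regions held, exact matches were searched on both strands within 250 bp of each region's centre. The AP-1 motif, TGACTCA or TGAGTCA (each is the reverse complement of the other), was found in 23 of 62 regions (37.1%, 26.2 to 49.5), against 35.6% in the series. It was in 12 of the 23 TGFβ regions (52.2%, 33.0 to 70.8), against 47.3% of all TGFβ regions, in 6 of the 15 at 12 h alone (40%, against 47.6%) and in 2 of the 5 at 2 h alone (40%, against 32.3%). Of the 17 regions in every list, 3 held it (17.6%, 6.19 to 41.0), against 24.4%. The window covers only part of a wide region. Searched over the whole region, 5 of these 17 held the motif (29.4%, 13.3 to 53.1, against 35.4%). So did 14 of the 23 TGFβ regions (60.9%, 40.8 to 77.8, against 54.0%). The motif nearest to a centre was 2 bp away, in the region of 308 bp upstream of Lox, and in the sequences printed above it lay 13 bp (Thbs1), 14 and 17 bp (both at Sparc) and 18 bp (Tnc) from the centre. Near Postn there was no match, and none at the 5′ end of Sparc, which says only that these letters are not in those windows. Each of these shares had an interval that included the share over the series.

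The SMAD palindrome GTCTAGAC and the SMAD CAGA box AGCCAGACA were in 0 of the 62 windows, and in 0.819% and 1.32% of all regions, which leaves few to be found in a set of this size. The TEAD motif, GGAATGT or GGAATGC, was in 10 of 62 regions (16.1%, 9.0 to 27.2), against 15.5%. It was in 5 of the 15 regions at 12 h alone, among them the 5′ end of Sparc, the Sparc intron and the Tnc intron (33.3%, 15.2 to 58.3, against 18.8% of all regions at 12 h alone). Of the 23 TGFβ regions 4 held it in that window (17.4%, against 17.7%), with 3 matches in 1 Cdh2 intron. None of the 5 at 2 h alone did (15.4% in the series). The window reaches past a narrow region, and within the regions themselves 3 of the 23 held the TEAD motif (13.0%, against 22.2%).

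For comparison, 32 other genes of matrix and mesenchymal cells were described in the same way (lysyl oxidases, latent TGFβ binding proteins, matricellular proteins, elastic fibre proteins, tenascins, proteoglycans, and cadherin and cytoskeletal genes). In a vehicle region were the 5′ ends of 2 of the 32 (6.25%, against 35.9% of all genes), Spp1 for osteopontin and Hspg2 for perlecan. At 2 h and at 12 h there were 5 (15.6%, against 41.4% and 41.5%), with the addition of Ltbp1, Loxl3 and Loxl4. A CG ratio of 0.6 or more was found at 10 of the 32 (31.2%), against 45.6% of all genes. At least 1 TGFβ region was near 23 of the 32 (71.9%, against 62.7% of all genes). The medians were 7 regions and 2 TGFβ regions per gene, against 5 and 1. None of the 7 elastic fibre genes was covered in any list, and neither were 12783 of all 22367 genes. Loxl3, Loxl4 and Ltbp1, relatives of Lox and Ltbp2, thus had 5′ ends in both TGFβ lists without vehicle, a pattern that none of the 10 genes showed. A wider class, with the 5′ end in 1 or both TGFβ lists and not in vehicle, held 1 of the 10 genes (Sparc) and 3 of the 32. Over all protein-coding genes it held 1557 of 22367. The share in both TGFβ lists without vehicle was not computed over all genes, so the absence among 10 genes cannot be judged.

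The lists differed in length, with 18337 intervals of 150 bp or more in vehicle and many more in each TGFβ list, so the patterns were recomputed after each TGFβ list was cut to the 18337 widest of its intervals. Then 35 regions were left near the 10 genes, 13 of them in all 3 lists (37.1%, against 45.1% in the series) and 16 absent from vehicle (45.7%, against 32.4%). In vehicle but missing from a TGFβ list were 6. Of these, 5 were in vehicle alone (14.3%, against 12.8%) and 1 in vehicle and at 2 h (2.86%, against 5.92%). None was in vehicle and at 12 h, against 3.81% in the series. The cut removes narrow TGFβ intervals, so such losses follow in part by construction. TGFβ regions fell to 4 (11.4%, against 12.6%), while 9 regions at 12 h alone made up 25.7%, against 11.1%. These were mostly not the earlier ones, since 3 had been at 12 h alone in the full lists and 6 had been TGFβ regions. Of the 15 regions at 12 h alone in the full lists, 12 were in no shortened list. Of the 43 regions without vehicle, 27 were in no shortened list, so for these the list length and the condition cannot be told apart. How far peaks under the threshold of the vehicle list account for the TGFβ regions was not tested.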

How the data were processed

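ATAC-seq reads of 6 samples (2 biological replicates of vehicle, TGFβ 2 h and TGFβ 12 h, grouped by the labels) were processed by the authors with the ENCODE ATAC-seq pipeline on mm9, with peaks called by MACS2 2.1.2 (per the labels) and kept when reproducible between replicates. The deposited files are 1 peak list per condition. The vehicle list also holds a score for each peak, which the authors deposited and whose scale is not given in the sources used here. In the TGFβ lists that column numbers the lines and was not used. The lists hold no read counts, and the read totals that the study states for its libraries were not used here.

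Repeated intervals were counted once, intervals under 150 bp were dropped and gaps under 1000 bp merged, first inside a list and afterwards across lists, which gave the regions. A list held a region at any overlap. 5′ ends, introns and exons came from protein-coding genes of GENCODE vM1 on NCBIM37 (the same build as mm9), coordinates are 1-based, and start sites are those of all transcripts. For each gene the text names the region at or nearest to the 5′ end, the nearest TGFβ region, the widest 12 h region and each region lost. The 10 genes and the gene lists were chosen with earlier results of these data known. The CG measure and the split by start sites were chosen after the data were seen. Alternatives were the merge gap, the minimum width, the list length, the window, the 5′ ends, the overlap and the motif window. On simulated lists, 0 of 549 comparisons with a direct count disagreed. Python 3.11.15, numpy 2.4.6, pandas 2.3.3, scipy 1.17.1 and matplotlib 3.10.9 were used.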

Additional observations from a re-analysis of the deposited data

How the results depend on the processing

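No paired analysis was possible because the replicates of a condition share a single peak list, and for the same reason no replicate could be left out. Of the values for the 10 loci as a whole, 141 moved by less than 1.5 times or stayed within their interval, none reversed, and the rest moved as follows. With touching intervals alone merged, the median widening at 2 h was 98.5 bp. With a 300 bp minimum width, 1 region was lost and 100% of matched regions were wider at 2 h. With shortened TGFβ lists there were 35 regions, 21 at 2 h and 26 at 12 h, of which TGFβ regions made up 11.4%, 6 were lost, 100% of the matched were wider at 2 h, and the median widening at 12 h was 187 bp. A window of 50 kb left 33 regions (vehicle 10, 2 h 21, 12 h 30), with 36.4% at 12 h alone, 1 lost, 100% of the matched wider at 2 h and a median widening at 12 h of 337 bp. One of 200 kb gave 116 regions (vehicle 29, 2 h 85, 12 h 102), of which 5 were lost. Away from start sites (added after the data were seen), 8.70% were in all 3 lists and 50% were TGFβ regions. Merge gaps of 500 and 2000 bp, no minimum width, the 5′ ends of all transcripts, 50% overlap and both other motif windows moved none of these values. Counts for single genes moved in 77 of 300 comparisons. The causes were not tested, except that wider or narrower windows and shorter lists change the number of regions by construction. The shorter lists also kept only the widest TGFβ intervals, which by construction favours lost regions and wider matched ones. The lists hold no read counts, so the reads behind a single region are unknown, and a region missing from a list is no measure of closed chromatin.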

Other observations

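Of 10 epithelial genes, chosen as markers of the starting cells, 5 had the 5′ end in a vehicle region, among them the keratin genes Krt8 and Krt18 and the tight junction genes Ocln and Tjp1. At 2 h there were 6, with Cdh1, the gene of E-cadherin, and at 12 h 7, with Cldn4, which encodes a claudin of tight junctions. Over all protein-coding genes, 35.9% were covered in vehicle, 41.4% at 2 h and 41.5% at 12 h. A region in both TGFβ lists without vehicle was near 7 of the 10 (70%), against 62.7% of all genes. The median was 15 regions per gene, against 6 for the mesenchymal and matrix genes and 5 over all genes. The median of regions in both TGFβ lists without vehicle was 3.5, against 3 and 1 in that order. The windows of Krt8 and Krt18 overlap, as do those of Cldn3 and Cldn4, so these 4 genes are not independent.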
